A study of Mus musculus with 16 samples.

Results

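FGF receptors and the genes that fibroblast growth factor (FGF) signalling induces to restrain itself were followed in mouse intervertebral discs after deletion of Sox9, which encodes a master regulator of cartilage. The 10 genes were taken by symbol from the 19505 genes named on the array. They are the receptor genes Fgfr1, Fgfr2, Fgfr3 and Fgfrl1 and the feedback genes Etv4, Etv5, Spry1, Spry2, Spry4 and Dusp6. All 10 were measured, each by a single probe set.

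The samples came from 8 female mice of 3 to 4 months, and both the nucleus pulposus (NP, the gel-like centre of the disc) and the annulus fibrosus (AF, its fibrous ring) of each animal were put on arrays. In the 4 Sox9cKO mice (AcanCreERT2 Sox9fl/fl, called cKO here) tamoxifen activated a Cre driven by Acan, the aggrecan gene, so deletion is limited to cells in which Acan is active. The 4 Sox9CTR mice (Sox9fl/fl, called CTR here) carry the same floxed alleles and no Cre is named for them. The groups, with 4 arrays each, were NP cKO, NP CTR, AF cKO and AF CTR, all collected 5 days after the first injection, with lumbar and tail discs of an animal pooled. Tamoxifen is named for the cKO mice, and whether CTR mice received it is not stated, so an effect of the drug and one of the deletion cannot be told apart. Litters are not named, and p-values measure the spread between these arrays within their groups. The NP and AF arrays of an animal were counted separately, except where the animal was a block.

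FGFs bind receptor tyrosine kinases together with heparan sulfate, and the receptors switch on the RAS-ERK cascade. The receptor encoded by Fgfrl1 has the extracellular part of the family without the kinase domain. ERK activity induces the ETS transcription factor genes Etv4 and Etv5, the Sprouty genes, whose products dampen the cascade upstream, and Dusp6, whose product is a phosphatase that inactivates ERK. In growth plate cartilage Fgfr3 is known as a brake on chondrocyte growth, and Fgfr3 and Fgfrl1 are known as genes of cartilage cells. The transcripts of the feedback genes are widely used as a readout of FGF signalling, although other growth factor receptors induce them too.

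Values are log2 signals, on which a difference of 1 is a doubling or halving of signal. Sox9 averaged 9.75 ± 0.25 in NP cKO and 16.27 ± 0.36 in NP CTR, and 12.24 ± 0.65 in AF cKO and 16.92 ± 0.51 in AF CTR (SD, n = 4 each), a change of -6.51 in the NP (limma adjusted p = 3.11e-10) and -4.68 in the AF (1.05e-07). As a tissue check, 5 of 7 measured notochordal NP markers passed as higher and 7 of 7 AF and tendon markers passed as lower in NP than in AF of the cKO mice (limma), with 4 of 7 and 6 of 7 passing in CTR mice. The keratin gene Krt19, an NP marker, was nevertheless bright in the AF arrays, at 15.41 to 17.34 in AF cKO and 15.35 to 16.42 in AF CTR. In CTR mice 2 of the 7 notochordal markers had a lower mean in NP than in AF, without passing. These were Noto (7.28 against 7.94) and Shh (7.33 against 7.58). Markers of other cells varied among the AF arrays, and most were higher in value in AF cKO than in AF CTR. This held for 7 of 7 neutrophil markers (median change 3.17), 7 of 7 skeletal muscle markers (1.52) and 6 of 6 endothelial markers (0.56). It also held for 5 of 6 macrophage and 4 of 6 osteoblast markers. None of these passed, and the shift runs with the genotype in the AF. The mean signal of 7 neutrophil markers ran from 9.47 to 13.84 in AF cKO and from 5.92 to 11.89 in AF CTR, and that of 7 skeletal muscle markers from 7.01 to 10.58 in AF cKO and from 6.76 to 7.71 in AF CTR, and their part in the AF results was not tested beyond leaving arrays out. In the NP, the mean of 7 AF and tendon markers was 8.52, 8.50, 9.43 and 10.28 in cKO replicates 1 to 4 and 8.16 to 9.23 in CTR. Dcn, the decorin gene of fibrous tissue, was 7.39, 7.61, 14.12 and 18.97 in those cKO arrays and 6.18 to 10.65 in NP CTR. NP results of Fgfr2, Fgfr3, Fgfrl1, Etv5 and Dusp6 are also given without cKO replicates 3 and 4, a pair chosen after seeing these markers. Fewer cells of a type and less RNA per cell cannot be told apart in such tissue samples.

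Each gene was placed among 5222 negative control probe sets, whose median per array ran from 6.14 to 6.59. Etv4, Spry1 and Spry4 lay at that level in every group: from 21.2% to 59.5% of the negative controls were dimmer than their group means. Spry2 exceeded 44.8% to 53.1% of them in the NP groups, so it lay at that level there, and 76.1% to 78.7% in the AF groups. Dusp6 exceeded 88.1% to 93.7%, Etv5 81.7% to 97.0%, and Fgfr1 67.1% to 93.7%. Fgfr2, at 92.1% to 95.7%, and Fgfrl1, at 95.5% to 98.0%, stood near the top of the controls in each group, and Fgfr3 ranged from 83.4% in NP cKO to 98.3% in AF CTR. Among the feedback genes, Etv5 and Dusp6 were thus the ones clearly above most negative controls in all 4 groups.

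Among the receptors, Fgfr3 carried the clearest change after Sox9 deletion. In the AF its signal was 10.85, 10.87, 11.48 and 10.76 in cKO replicates 1 to 4, against 14.82, 13.68, 12.06 and 13.42 in CTR replicates 1 to 4. Every cKO array lay below every CTR array, and the spread was wider in CTR (SD 1.13) than in cKO (SD 0.33). The log2 change was -2.50 (SE 0.41), a 5.67-fold lower signal (limma, adjusted p = 0.0151 over all 22206 probe sets). In the NP its signal was 7.77, 8.72, 8.14 and 8.21 in cKO replicates 1 to 4, against 9.56, 10.32, 10.67 and 9.97 in CTR replicates 1 to 4. The groups did not overlap here either, and the change was -1.92 (SE 0.41), with a 95% interval from -2.77 to -1.07 and an adjusted p of 0.101 that missed the threshold. Without NP cKO replicates 3 and 4 the NP change was -1.88 (limma adjusted p = 0.488). The call depended on which arrays set the spread: fitted on the 8 arrays of each tissue alone, limma gave an adjusted p of 0.0159 in the NP and 0.227 in the AF. The AF call was also lost without cKO replicate 1 (adjusted p = 0.0576) or cKO replicate 2 (0.0602), and without the muscle-rich cKO replicates 2 and 4 together (0.0713).

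Fgfrl1 was lower in cKO in the AF. Its signal there was 10.95, 11.42, 11.42 and 11.04 in cKO replicates 1 to 4, against 12.43, 13.57, 12.54 and 12.34 in CTR replicates 1 to 4. No value of the groups overlapped, and the log2 change was -1.51 (SE 0.27, limma adjusted p = 0.0244). In the NP it was 10.34, 11.06, 10.30 and 10.14 in cKO, against 10.65, 10.88, 11.15 and 10.65 in CTR, in the same order. These groups overlapped, with a change of -0.37 (SE 0.27, 95% interval from -0.93 to 0.18). The NP change was -0.13 without cKO replicates 3 and 4, the arrays with the most AF and tendon marker signal, and -0.58 without cKO replicate 2. The difference between the tissues in this change, NP minus AF, was 1.14 (SE 0.38, unadjusted p = 0.00701), which did not pass over all probe sets (limma adjusted p = 0.732). The AF call was lost with median-centred arrays (adjusted p = 0.0586), with the 8 AF arrays alone (0.228), or without cKO replicate 1 (0.0990), cKO replicate 2 (0.0602), CTR replicate 2 (0.0529) or cKO replicates 2 and 4 together (0.0703).

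Fgfr1 and Fgfr2 did not pass in either tissue. Fgfr1, a receptor of mesenchymal cells, was 7.14 to 7.88 in NP cKO and 6.84 to 7.85 in NP CTR, and 8.98 to 10.46 in AF cKO and 8.31 to 10.20 in AF CTR. Its changes were 0.40 (95% interval from -0.41 to 1.20) in the NP and 0.27 (from -0.54 to 1.07) in the AF. Fgfr2, a receptor best known from epithelia and bone, had a change of -0.62 (SE 0.31) in both tissues, with intervals from -1.28 to 0.03. Its groups overlapped, at 8.46 to 9.79 in NP cKO and 9.54 to 10.63 in NP CTR, and at 9.51 to 10.37 in AF cKO and 10.26 to 11.20 in AF CTR. The NP change of Fgfr2 was -0.31 without cKO replicate 2, its lowest array at 8.46, so the equal size in the tissues rests on that array. Without cKO replicates 3 and 4 the NP change of Fgfr2 was -0.88.

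**Figure D1:**
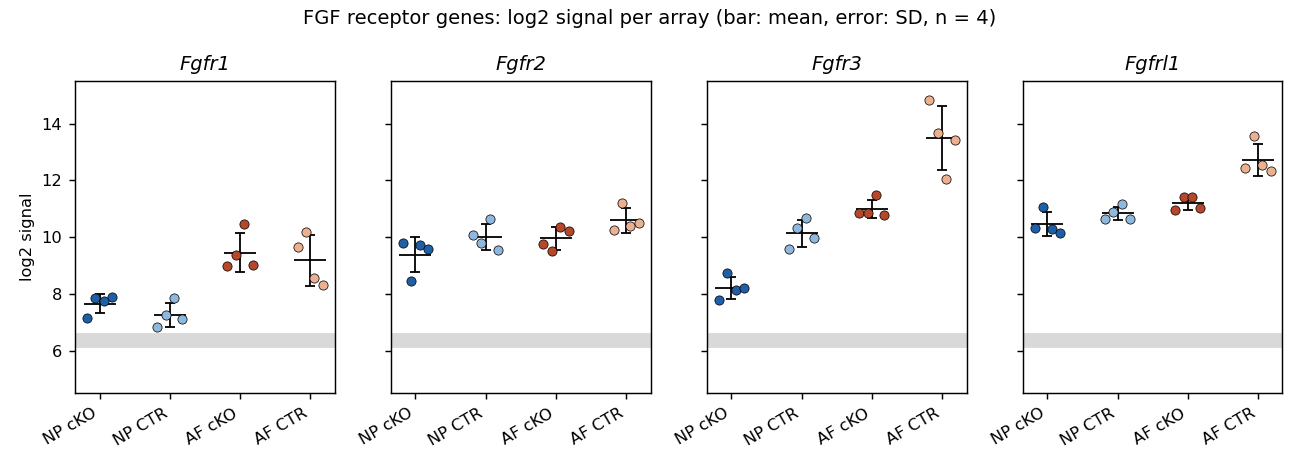
Log2 signal (vertical axis) of the 4 receptor genes in each of the 16 arrays, grouped as NP cKO, NP CTR, AF cKO and AF CTR; points are arrays, horizontal bars means, error bars SD (n = 4), and the grey band spans the negative control medians per array (6.14 to 6.59). Fgfr3 runs from a mean of 8.21 in NP cKO to 13.49 in AF CTR without overlap between neighbouring groups in the order of their means, and Fgfrl1 separates AF cKO from AF CTR.

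Among the feedback genes, Etv5 was lower in cKO in both tissues without passing in either alone. In the NP it was 7.50, 7.92, 8.30 and 8.57 in cKO replicates 1 to 4, against 9.73, 9.30, 9.51 and 9.19 in CTR replicates 1 to 4. The groups did not overlap, and the change was -1.36 (SE 0.30, limma adjusted p = 0.135). Without cKO replicates 3 and 4 it was -1.72 (adjusted p = 0.109). In the AF it was 10.08, 10.14, 10.85 and 10.34 in cKO, against 10.82, 11.82, 12.18 and 10.94 in CTR. Here cKO replicate 3 reached just above CTR replicate 1, and the change was -1.09 (SE 0.30, limma adjusted p = 0.197). Without AF CTR replicate 1 and AF cKO replicate 3, a pair of arrays chosen after seeing their osteoclast marker signals, the AF change was -1.46 (adjusted p = 0.0451). This was the 1 setting of 19 alternatives in which the AF change of Etv5 passed, and over these its limma adjusted p reached 0.483.

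Dusp6 gave different values in the tissues. In the NP it was 8.92, 8.85, 7.87 and 9.08 in cKO replicates 1 to 4, against 9.30, 9.43, 10.97 and 9.52 in CTR replicates 1 to 4, without overlap. Its change of -1.12 (SE 0.42) had an unadjusted p of 0.0159 and did not pass over all probe sets (limma adjusted p = 0.870). Without CTR replicate 3, the bright array, the NP change was -0.74 (adjusted p = 1). Without NP cKO replicates 3 and 4 the NP change was -0.92. In the AF the Dusp6 signal was 9.45, 9.37, 8.15 and 10.48 in cKO, against 9.17, 9.93, 9.11 and 9.33 in CTR. The cKO values straddled the CTR values, and the change was -0.02 (95% interval from -0.91 to 0.87). Over the alternative settings the AF change ran from -0.58, without the muscle-rich cKO replicates 2 and 4, to 0.38. The difference of the changes, NP minus AF, was -1.10 (95% interval from -2.36 to 0.15, limma adjusted p = 0.741). It ran from -1.51 to -0.54 over the alternative settings, with -0.54 found without AF cKO replicates 2 and 4.

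The Sprouty genes and Etv4 showed no call. Spry1 gave a difference of 0.31 (95% interval from -0.07 to 0.70) in the NP and of 0.17 (from -0.21 to 0.56) in the AF. For Spry2 the differences were 0.31 (from -0.18 to 0.79) in the NP and -0.11 (from -0.59 to 0.38) in the AF. Spry4 gave -0.11 (from -0.63 to 0.41) in the NP and 0.02 (from -0.50 to 0.54) in the AF. Etv4, an ETS factor closely related to Etv5, gave 0.02 (from -0.54 to 0.59) in the NP and -0.31 (from -0.87 to 0.26) in the AF. Etv4, Spry1 and Spry4 gave these values at signals near the negative control medians, as did Spry2 in the NP. In the AF, Spry2 stood above those medians, at 7.29 to 7.78 in cKO and 7.47 to 7.94 in CTR.

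**Figure D2:**
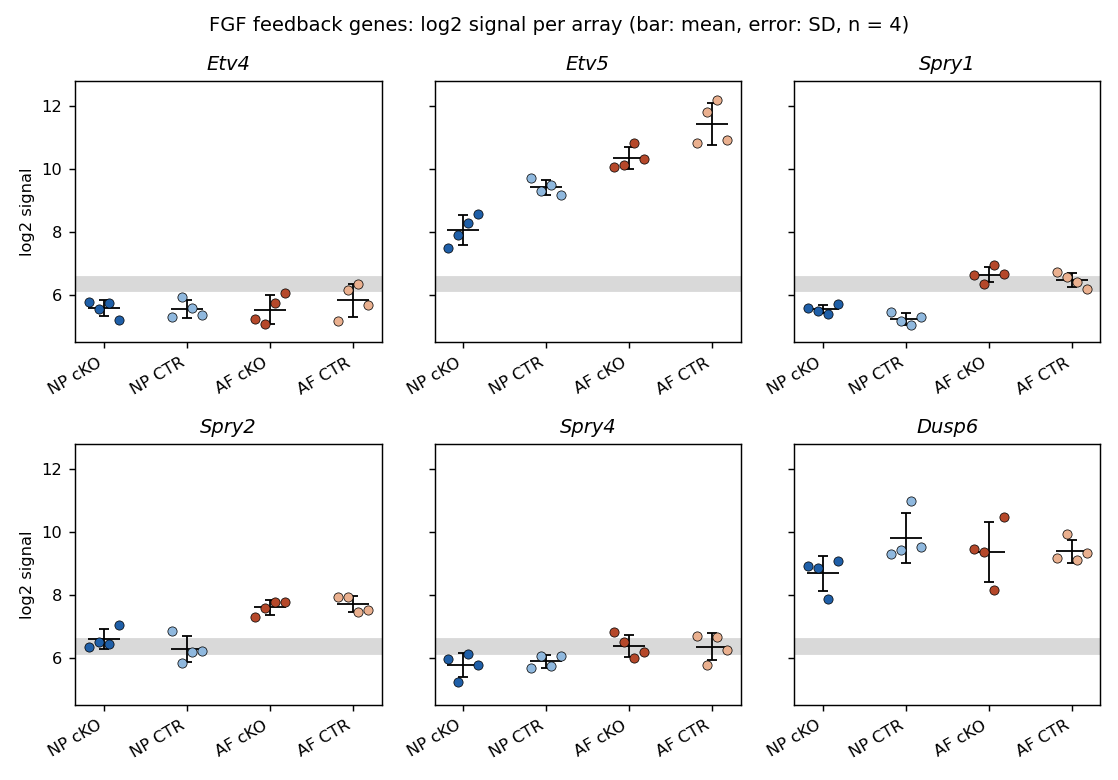
Log2 signal (vertical axis) of the 6 feedback genes in each array, grouped as NP cKO, NP CTR, AF cKO and AF CTR; points are arrays, horizontal bars means, error bars SD (n = 4), and the grey band spans the negative control medians per array (6.14 to 6.59). Etv5 lies lower in cKO than in CTR in both tissues, while Etv4, Spry1 and Spry4 stay at or below the band or just above it.

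Side by side, the median over the receptors was -0.50 in the NP and -1.07 in the AF, and over the feedback genes -0.04 in the NP and -0.06 in the AF. The feedback median takes in the dim genes Etv4, Spry1 and Spry4, and also Spry2, which is as dim as these in the NP. The mean signal of the 6 feedback genes per array was 6.60 to 6.90 in NP cKO and 6.95 to 7.18 in NP CTR, without overlap, and 7.51 to 7.92 in AF cKO and 7.66 to 8.03 in AF CTR, with overlap. Over all probe sets the medians were 9e-05 in the NP and -0.03 in the AF. In the NP 0 of 10 members passed with limma, where 0.122% of all probe sets passed. An unadjusted p under 0.05 was found for 3 members (Fgfr3, Etv5 and Dusp6) and for 4.58% of all probe sets. These 3 were also the members whose cKO arrays all lay below the CTR arrays, which held in that direction for 1.82% of all probe sets. In the AF 2 of 10 passed (Fgfr3 and Fgfrl1), both lower in cKO, where 0.0991% of all probe sets passed and 0.0856% passed as lower. The AF groups did not overlap for those 2, and 2.54% of all probe sets were lower in this way. Fgfr3 thus had the most negative change of the 10 members in each tissue, and Etv5 the most negative of the feedback genes.

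**Figure D3:**
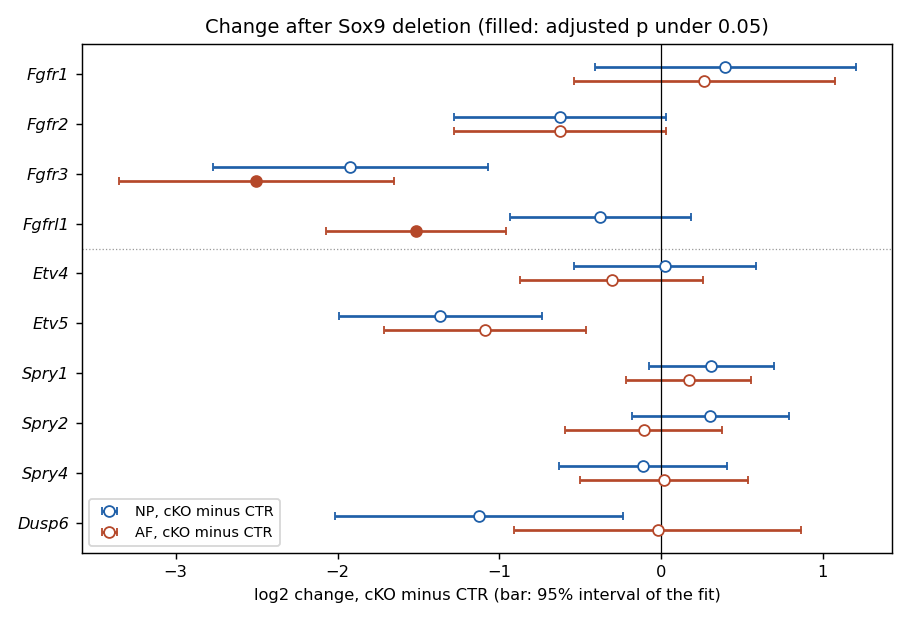
Log2 change, cKO minus CTR (horizontal axis), of the 10 members in the NP (blue, upper) and the AF (red, lower), receptors above the dotted line and feedback genes below it; bars are 95% intervals of the limma fit, which pools the spread of all 16 arrays, and filled points passed at an adjusted p under 0.05. The passing values are the AF changes of Fgfr3 (-2.50) and Fgfrl1 (-1.51), and the intervals of Etv5 lie below 0 in both tissues.

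Averaging the change over both tissues uses all 8 animals for one estimate. In this comparison 3 members passed, all lower in cKO, where 0.311% of all probe sets passed and 0.275% passed as lower. Fgfr3 had an average change of -2.21 (SE 0.29, limma adjusted p = 8.74e-04), Etv5 one of -1.23 (SE 0.21, adjusted p = 0.00943), and Fgfrl1 one of -0.94 (SE 0.19, adjusted p = 0.0323). Fgfr3 passed under all 27 alternative settings and Etv5 under 26 of 27, with an adjusted p of 0.0595 for Etv5 when AF cKO replicates 2 and 4, which are rich in muscle markers, were left out. Fgfrl1 passed under 16 of 28, and over these its average change ran from -1.06 to -0.80 and its adjusted p reached 0.198. Fgfr2 averaged -0.62 (SE 0.22) with an unadjusted p of 0.0110 and an adjusted p of 0.458. Dusp6 averaged -0.57 (SE 0.30, adjusted p = 0.728). For the differences between the tissues in the change, 0 of 10 members and 0% of all probe sets passed with limma. An unadjusted p under 0.05 was found for 1 of the 10 (Fgfrl1) and for 6.74% of all probe sets, a share near that of the members.

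The 250 bases before the transcript start are shown for the 3 members that passed in this averaged comparison, so that the promoters of genes with a shared direction can be read beside each other. They come from RefSeq (GRCm38.p6) and are written 5′ to 3′ on the gene's strand. Windows were available for 7 of the 10 members, 9 starts in all. Capitals mark matches, on either strand, to the SOX core motifs ACAATG and ACAAAG or the ETS core motif CCGGAA, none of which overlap each other here.
Fgfr3, chr5:33721474-33721723, plus strand: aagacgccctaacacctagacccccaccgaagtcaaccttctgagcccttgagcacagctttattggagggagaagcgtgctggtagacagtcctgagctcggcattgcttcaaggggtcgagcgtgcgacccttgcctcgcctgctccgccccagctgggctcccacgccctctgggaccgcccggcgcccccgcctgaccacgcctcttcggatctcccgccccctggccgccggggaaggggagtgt
Fgfrl1, chr5:108693979-108694228, plus strand: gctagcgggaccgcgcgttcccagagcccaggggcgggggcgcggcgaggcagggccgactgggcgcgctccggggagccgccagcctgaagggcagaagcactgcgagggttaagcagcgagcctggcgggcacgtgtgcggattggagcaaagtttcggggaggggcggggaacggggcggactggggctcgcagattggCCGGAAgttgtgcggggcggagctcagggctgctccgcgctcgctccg
Etv5, chr16:22439571-22439820, minus strand: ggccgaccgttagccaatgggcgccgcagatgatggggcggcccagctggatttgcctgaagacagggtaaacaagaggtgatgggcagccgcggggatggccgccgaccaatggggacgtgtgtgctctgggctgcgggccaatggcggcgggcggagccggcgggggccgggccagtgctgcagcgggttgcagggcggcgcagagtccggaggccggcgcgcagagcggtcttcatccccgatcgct
The window of Fgfrl1 holds CCGGAA at position -48 from the start, on the plus strand, and 12.0% of 32841 such windows hold that motif. No match to the 3 motifs was found in the printed windows of Fgfr3 and Etv5 or at their other annotated start. Among the other members with a window, Spry2 holds ACAAAG on the opposite strand at position -137. Either SOX motif occurs in 25.2% of all windows. The printed windows are rich in G and C, at 66.8% for Fgfr3, 73.6% for Fgfrl1 and 71.2% for Etv5, against a median of 52.4% over all windows.

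Between the tissues, 6 of the 10 members were lower in NP than in AF, and the same 6 passed in both genotypes: Fgfr1, Fgfr3, Fgfrl1, Etv5, Spry1 and Spry2. Tissue differences were common on these arrays, with 12.6% of all probe sets passing as lower in NP among cKO mice and 10.1% among CTR mice. The arrays of the tissues did not overlap for 5 of these 6 in cKO mice and for 6 of 6 in CTR mice, and 12.5% and 11.2% of all probe sets were lower in NP in this way. For Fgfr3 the difference, NP minus AF, was -2.78 (SE 0.41, limma adjusted p = 9.76e-05) in cKO mice and -3.36 (SE 0.41, adjusted p = 1.11e-05) in CTR mice. Etv5 differed by -2.28 (SE 0.30) in cKO mice and -2.01 (SE 0.30) in CTR mice. Fgfr1 differed by -1.79 (SE 0.38) in cKO mice and -1.92 (SE 0.38) in CTR mice. Fgfrl1 differed by -0.74 (SE 0.27, adjusted p = 0.0461) in cKO mice, where the arrays of the tissues overlapped, and by -1.88 (SE 0.27) in CTR mice. The cKO call of Fgfrl1 passed under 8 of 20 alternative settings, with adjusted p up to 0.318.

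Spry1 and Spry2 had similar differences between the tissues. Spry1 differed by -1.10 (SE 0.18) among cKO mice and -1.24 (SE 0.18) among CTR mice. Spry2 differed by -1.02 (SE 0.23) among cKO mice and -1.43 (SE 0.23) among CTR mice. In NP, Spry1 averaged 5.56 in cKO and 5.25 in CTR, below every negative control median, and Spry2 averaged 6.59 in cKO and 6.29 in CTR. Fgfr2, Etv4, Spry4 and Dusp6 passed in neither genotype, with Spry4 at -0.60 (SE 0.25) in cKO mice and -0.47 (SE 0.25) in CTR mice. Dusp6 was the 1 member with a higher mean in NP than in AF of CTR mice, by 0.42 (SE 0.42), and in cKO mice its difference was -0.68 (SE 0.42).

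Within animals, matched by the code in the titles, the directions were uniform for the 6 members that passed. Where the arrays of the tissues do not overlap, this follows under any pairing of animals and adds no separate support. That is the case for these 6 members except Fgfrl1 in cKO mice. NP of an animal lay below AF of the same animal in 4 of 4 cKO mice and 4 of 4 CTR mice for each of Fgfr1, Fgfr3, Fgfrl1, Etv5, Spry1 and Spry2. For Fgfr3 the within-animal differences were -3.08, -2.14, -3.34 and -2.55 in the cKO mice, and -5.25, -3.36, -1.39 and -3.44 in the CTR mice. The mean Fgfrl1 difference was -0.74 ± 0.34 in cKO mice and -1.88 ± 0.56 in CTR mice (SD, n = 4 each). Dusp6 was lower in NP in 4 of 4 cKO mice and in 1 of 4 CTR mice. For the 6 members that passed, the differences also held with the animal as a block.

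**Figure D4:**
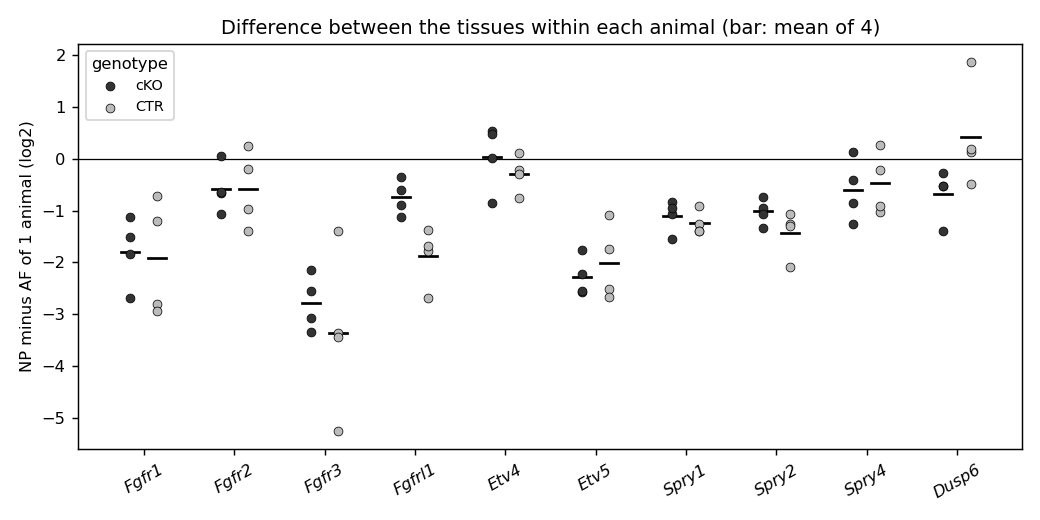
Difference in log2 signal between NP and AF of the same animal (vertical axis) for the 10 members, with the 4 cKO animals in dark and the 4 CTR animals in light points and bars at their means. All 8 animals lie below 0 for Fgfr1, Fgfr3, Fgfrl1, Etv5, Spry1 and Spry2, and Dusp6 lies below 0 in 4 of 4 cKO mice and 1 of 4 CTR mice. For the first 6 genes, except Fgfrl1 in cKO mice, the tissues do not overlap, so this direction holds under any pairing.

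The order of the 4 groups differed between members. For Fgfr3 the mean was lowest in NP cKO (8.21), then NP CTR (10.13), AF cKO (10.99) and AF CTR (13.49), and no neighbours in this order overlapped. Etv5 had the same order, at 8.07, 9.44, 10.35 and 11.44, with overlap only between AF cKO and AF CTR. Fgfrl1 followed it too, at 10.46, 10.84, 11.21 and 12.72, but NP cKO overlapped with NP CTR and NP CTR with AF cKO. For Fgfr1, Spry1 and Spry2 the gap in the order lay between the AF groups and the NP groups, and the genotypes of a tissue overlapped. Fgfr2, Etv4, Spry4 and Dusp6 had no gap between neighbours.

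Chondrocyte marker signal varied among the AF arrays. The mean signal of 7 chondrocyte markers was 12.08, 11.89, 12.67 and 11.37 in AF cKO replicates 1 to 4, against 15.96, 14.86, 12.62 and 13.57 in AF CTR replicates 1 to 4. In AF CTR, Fgfr3 had its highest value in replicate 1, which was highest in these markers, and its lowest in replicate 3, which was lowest in them. This likeness is not particular to chondrocyte markers. In replicates 1 and 3 the marker means were 10.38 and 6.02 for osteoclasts, 12.50 and 9.44 for osteoblasts, and 11.89 and 5.92 for neutrophils. These were also the extremes of those lists in AF CTR. Etv5 did not follow that order: it was highest in replicate 3 (12.18) and lowest in replicate 1 (10.82). Across the 16 arrays Fgfr3 and Etv5 correlated with r = 0.863, whereas after removal of the group means the correlation was -0.389. Fgfr3 and Fgfrl1 gave 0.891 and 0.291 in the same order, and Spry1 and Spry2 gave 0.937 and 0.618. These correlations describe arrays that share groups and animals, and the part of chondrocyte content in the AF changes was not tested. Leaving out AF CTR replicates 1 and 3, chosen after seeing the chondrocyte markers, gave an AF change of -2.56 (limma adjusted p = 0.000896) for Fgfr3 and -1.03 (limma adjusted p = 0.329) for Etv5.

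**Figure D5:**
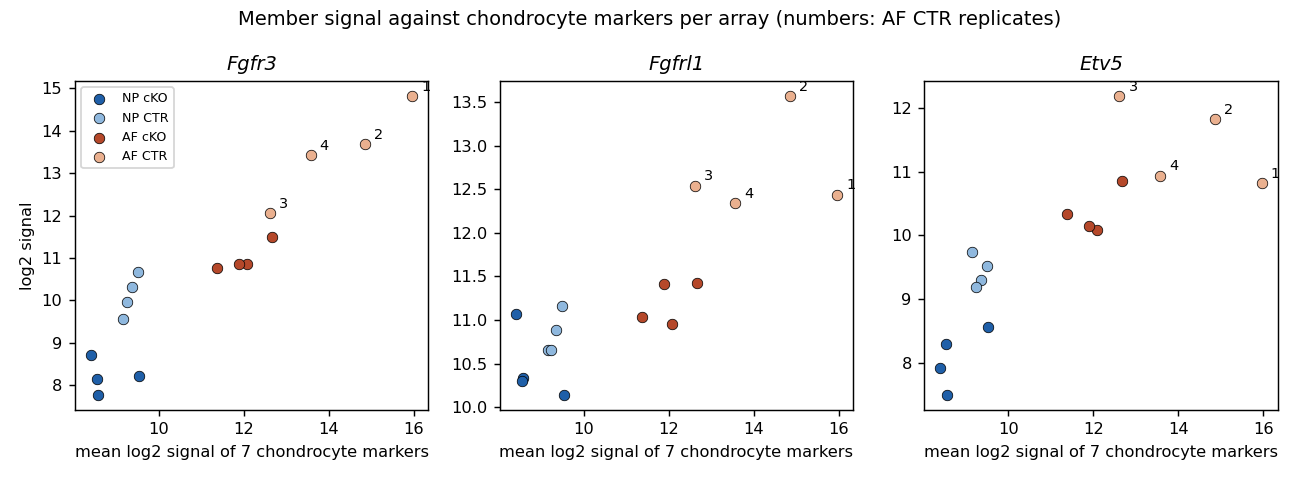
Log2 signal of Fgfr3, Fgfrl1 and Etv5 (vertical axes) against the mean log2 signal of 7 chondrocyte markers (horizontal axes) in the 16 arrays, coloured by group, with the AF CTR replicates numbered. Among the AF CTR arrays Fgfr3 has its extremes in replicates 1 and 3, as the markers do, and Etv5 has them the other way round, at 10.82 and 12.18. Osteoclast, osteoblast and neutrophil markers, not shown, have the same extremes as the chondrocyte markers there.

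The genes whose signal over the 16 arrays was most like that of Fgfr3 were Eps8l2 (Pearson r = 0.960), the sulfate transporter gene Slc26a2 (0.954), Rflna (0.952), Scrg1 (0.943) and the cartilage matrix gene Ucma (0.941). After removal of the group means these correlations lay between 0.615 and 0.842. For Fgfrl1 they were the Wnt inhibitor gene Sfrp5 (0.947), the calcium channel gene Trpv4 (0.928), Ppp1r1b (0.925), Dock8 (0.922) and Prr5 (0.913), with 0.447 to 0.697 after removal of the group means. The mean of the 6 feedback genes was matched most closely by Stk32b (0.964), the Wnt inhibitor gene Frzb (0.962), the tendon gene Tnmd (0.950), Crlf3 (0.950) and Rcc2 (0.949), with 0.294 (Rcc2) to 0.667 after removal of the group means. These values describe likeness of pattern over arrays that share groups and animals, given as a description.

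Of the other genes of the pathway, 113 were measured, in lists of ligands, co-receptors and binding proteins, adaptors and the ERK cascade, further inhibitors, further ERK targets, heparan sulfate enzymes and other receptor tyrosine kinases. After Sox9 deletion 0 of 113 passed in the NP, in the AF or on average over both with limma. At an unadjusted p under 0.05 stood 8 in the NP (7.08%, against 4.58% of all probe sets) and 16 in the AF (14.2%, against 10.6%).

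Among the 17 ligands measured, the 3 with the smallest p did not pass. Fgf2, a ligand stored in matrix, gave 0.82 (SE 0.37, limma adjusted p = 0.448) in the AF, Fgf17 gave 0.51 (SE 0.25, adjusted p = 1) in the NP and Fgf21 gave -0.31 (SE 0.20, adjusted p = 0.587) in the AF. Fgf1, a ligand of all FGF receptors, was bright in NP at 12.22 to 13.35 in cKO and 12.64 to 13.54 in CTR. In AF it was 10.66 to 11.55 in cKO and 10.28 to 11.47 in CTR, the reverse of the order seen for Fgfr1, Fgfr3 and Fgfrl1. Its difference, NP minus AF, was 1.64 (SE 0.29, adjusted p = 5.82e-04) in cKO mice and 2.34 (SE 0.29, adjusted p = 1.58e-05) in CTR mice. Fgf7, a ligand from mesenchyme, differed by -1.60, NP minus AF, (SE 0.32) in cKO mice and -1.58 (SE 0.32) in CTR mice. Fgf21 was higher in NP of cKO mice, at a signal below the negative control medians. The group means of Fgf17 in the NP and of Fgf21 in the AF also lay below those medians.

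Among inhibitors and targets of ERK signalling, Spred2, a Sprouty relative, gave 0.90 (SE 0.25, limma adjusted p = 0.204) in the AF, at 10.59 to 11.25 in cKO and 9.40 to 10.54 in CTR, without overlap. Spry3 (-0.52, SE 0.23) and Rasa3 (0.78, SE 0.34) followed in the AF, where the Spry3 group means lay below every negative control median. Lrig1, a membrane protein that restrains receptors, gave -0.73 (SE 0.32) in the NP. The target gene Plaur, the urokinase receptor, gave 1.16 (SE 0.32, adjusted p = 0.197) in the AF, where AF cKO ran from 7.58 to 9.29 and AF CTR from 6.99 to 7.12. Phlda1, a target used as a readout of growth factor signalling, gave 0.78 (SE 0.23, adjusted p = 0.503) in the NP without overlap and 0.62 (SE 0.23, adjusted p = 0.367) in the AF. None of these passed. Egr2 gave -0.60 (SE 0.32) in the AF.

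Between the tissues more of the pathway differed, with 43 of 113 genes passing in cKO mice and 43 in CTR mice, against 25.9% and 20.1% of all probe sets. Lower in NP in both genotypes were the Sprouty relatives Spred1 and Spred2 and Rasa3, the targets Etv1, Fosl1 and Maff, the proteoglycans Sdc2 and Hspg2, and the heparan sulfate genes Extl3, Hs3st1, Sulf1 and Hpse. Spred1 differed by -1.97 (SE 0.35) in cKO mice and -2.07 (SE 0.35) in CTR mice, in the same direction as Spry1 and Spry2. Sulf1, an enzyme that removes sulfate groups from heparan sulfate, differed by -5.44 (SE 0.66) in cKO mice and -5.29 (SE 0.66) in CTR mice. Higher in NP in both genotypes were Phlda1, Lrig1, the adhesion genes Cdh2 and Ncam1, Ext1, Sulf2 and Fgfr4. Of the genes named in this comparison, Fgfr4, Hpse and Dusp4 lay below every negative control median in all arrays. Some group means of other genes lay below those medians too. These were Sulf1 in NP CTR (5.80), Rasa3 in NP CTR (6.10), Maff in NP cKO (5.79) and NP CTR (5.52), and Flrt3 in AF cKO (5.96) and AF CTR (5.89). Passing in cKO mice alone were Junb, Ier2, Plaur, Hs2st1 and Grb2, all lower in NP. Passing in CTR mice alone were Sdc1, Sdc3 and Sdc4, lower in NP, and Flrt3, Dusp4, Sos2 and Map2k1, higher in NP. Whether any of these differences depends on genotype was tested by the difference of changes, which 0 of 113 passed with limma. An unadjusted p under 0.05 was found for 5 of the 113 (4.42%, against 6.74% of all probe sets).

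Other receptor tyrosine kinases were read beside the FGF receptors. Of 24 measured, 0 passed with limma in the NP or the AF. An unadjusted p under 0.05 was found for 4 of the 24 in each tissue, where 4.58% of all probe sets had one in the NP and 10.6% in the AF. Egfr gave 0.80 (SE 0.28, limma adjusted p = 0.337) in the AF, at 7.92 to 8.54 in cKO and 6.62 to 7.68 in CTR, and 0.64 (SE 0.28) in the NP. Erbb4 gave -0.84 (SE 0.31, adjusted p = 0.845) and Erbb3 0.59 (SE 0.25) in the NP, where the Erbb3 group means lay below every negative control median. The list's median change was -0.08 in the NP and 0.22 in the AF. Between the tissues, Pdgfrb, Kdr, Tek, Axl, Ror1, Ntrk2, Ntrk3, Ephb4 and Ret were lower in NP in both genotypes, as were Insr and Epha2 in cKO mice, with Ntrk3 below every negative control median in all arrays and Ror1 below them in every group mean. Erbb2, Erbb4, Met, Igf1r and Ror2 were higher in NP in both, and Flt1 in CTR mice. Kdr and Tek are also endothelial markers, and 6 of 6 endothelial markers passed as lower in NP in each genotype.

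Among co-receptors, Sdc4, Flrt2 and Sdc1 had the smallest p after Sox9 deletion, and none passed. Sdc4, a cell surface proteoglycan, gave -0.61 (SE 0.20, limma adjusted p = 0.310) in the AF without overlap, at 15.06 to 15.29 in cKO and 15.39 to 16.27 in CTR. Sdc1 gave 1.76 (SE 0.77) in the NP, with cKO replicate 2 at 14.08, where the other cKO arrays ran from 9.18 to 9.94 and NP CTR from 8.65 to 9.13. Flrt2 gave 0.80 (SE 0.34) in the AF. Among adaptors, Plcg1, a phospholipase that FGF receptors bind, gave -0.51 (SE 0.21) in the AF, with Araf (0.53, SE 0.23) and Map2k2 (0.65, SE 0.29) higher in value, and none passed. Among heparan sulfate genes, Extl3 gave -0.45 (SE 0.24) and Sulf1 1.20 (SE 0.66) in the AF, and Hpse -0.30 (SE 0.18) in the NP.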

How the data were processed

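Arrays of 16 samples, 1 per tissue and animal, were analysed from the table of the series. The authors deposited log2 signals, computed with signal space transformation RMA (sst-RMA), per the labels, in Transcriptome Analysis Console, per the submitters' processing notes, whose version and genome build are not given in the sources used here. Of 28846 probe sets, 6640 controls were left out and 22206 tested, 19572 of them with 1 gene symbol and 2634 with none. The labels also name a detection threshold (DABG p under 0.05), which was not applied here, and the normalization was kept. The median signal per array ran from 6.66 to 6.89, arrays of a group correlated with r from 0.963 to 0.983, and the number of arrays limits the precision.

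limma 3.58.1 in R 4.3.3 fitted 4 group means to all 16 arrays, with 6 comparisons: cKO minus CTR in NP, in AF and averaged, their difference between tissues, and NP minus AF within each genotype. A gene passes where its p, adjusted by Benjamini and Hochberg across the 22206 probe sets, is under 0.05. The script was tested on simulated data. Members and lists were chosen with earlier results of these data known. Named are all 10 members, pathway genes that passed in any comparison and up to 3 more per list with the smallest p in the genotype comparisons, and the 5 genes most like Fgfr3, Fgfrl1 and the feedback mean. NP and AF arrays with the same animal code in the titles were taken to come from 1 animal. Their deviations from group means correlated with r from -0.293 to 0.348, and the animal was tried as a block. Alternatives changed the scaling (median centring or quantile normalization again), the probe sets (without dim ones, or 1 for each gene), the variance model (trend on intensity, weights on arrays), the arrays fitted (only those compared), the labels' thresholds (p under 0.05, fold of at least 1.75), blocks, leaving out each array, and 4 pairs of arrays left out after seeing marker signals.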

Additional observations from a re-analysis of the deposited data

Results flagged for a closer look

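Of 44 sets of 4 arrays (10 members and Sox9 in 4 groups), 5 held an array whose gap to its neighbour took up most of the range of its group, where chance gives about 1 in 20 sets. Fgfr1 was low in NP cKO replicate 1, at 7.14 against 7.76 in the next array. Fgfr2 was low in NP cKO replicate 2, at 8.46 against 9.58. Fgfr3 was high in AF cKO replicate 3, at 11.48 against 10.87, an array that also had the highest mean of osteoclast markers (11.72) and of neutrophil markers (13.84) among the AF cKO arrays. Fgfrl1 was high in AF CTR replicate 2, at 13.57 against 12.54. Dusp6 was high in NP CTR replicate 3, at 10.97 against 9.52. The part of other cell types in these values was not tested.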

How the results depend on the processing

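The counts of members that passed were the same or within 1.5 times of the reported counts under the second quantile normalization, 1 probe set per gene, an intensity trend and array weights. The replicate block, whether animal or replicate number, changed no call among the members: with the animal as a random block 2 passed in the AF (Fgfr3 adjusted p = 0.0161) and 6 in each comparison of the tissues. Replicate numbers of cKO and CTR animals share only a number, and the block on them kept 0 calls in the NP and 2 in the AF. The AF count of 2 became 1 with median centring (Fgfr3), 1 with dim probe sets left out (Fgfrl1), 0 with only the AF arrays, and 0 without AF cKO replicates 2 and 4. It ran from 0 to 2 when single arrays were left out. The NP count of 0 became 1 with only the NP arrays (Fgfr3), and 3 at the labels' thresholds, under which the difference of the changes gave 1 (Fgfrl1). The average over both tissues gave 1 instead of 3 with dim probe sets left out, a filter that kept 1 of 10 members, and 1 without AF cKO replicates 2 and 4. That filter also gave 1 instead of 6 in each comparison of the tissues. The cause of the other changes was not tested. The AF median of the feedback genes, -0.06, ran from -0.279 to -0.0464 when single arrays were left out and was -0.26 without AF cKO replicates 2 and 4 and 0.03 without AF CTR replicate 1 and AF cKO replicate 3. The NP median of the feedback genes ran from -0.133 to 0.0478 when single arrays were left out, so the sign of neither is settled. No member that passed changed direction. Over 1276 values of single members, 35 lost a call, 3 gained one and 52 that passed in neither setting had the other sign. Median centring moved the median of all probe sets in NP minus AF of CTR mice by 0.128, and by under that in the other comparisons. Counts over all probe sets moved more: the 22 of the AF became 8 with only the AF arrays, 37 after quantile normalization, 10 without dim probe sets and 774 at the labels' thresholds, and ran from 12 to 142 when single arrays were left out (142 without CTR replicate 1). The 27 of the NP became 262 at the labels' thresholds and went as low as 10 (without CTR replicate 3), the 69 of the average became 307 at those thresholds and 117 without AF CTR replicate 1, and the 0 of the difference of changes became 977 at those thresholds and up to 6 otherwise. Without dim probe sets, 684 passed between the tissues in cKO mice and 862 in CTR mice. Leaving out a pair of arrays took the cKO count to 3117, 3800 or 4205 and the CTR count to 2565 or 3581, and the AF count to between 34 and 112. Signal near the negative controls limits the precision for Etv4, Spry1 and Spry4, and for Spry2 in the NP.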

Other observations

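The genotype change of the ligand gene Fgf1 was -0.38 (SE 0.29, limma adjusted p = 1) in the NP and 0.32 (SE 0.29, limma adjusted p = 0.716) in the AF. The mean signal of the receptors per array was 8.76 to 9.02 in NP cKO and 9.28 to 10.08 in NP CTR, without overlap, and 10.13 to 10.93 in AF cKO and 10.89 to 12.16 in AF CTR, with overlap.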
